A study of Danio rerio with 19 samples.

Results

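A set of 241 genes was read almost only in GFPlow cells, the weakly fluorescent sort of the sst1.1:GFP reporter in the zebrafish islet. They were chosen by their values in these libraries. CPM, the counts of a gene scaled to a common library total, were computed on totals without the 4 hormone genes ins, sst1.1, sst1.2 and sst2, and a gene was kept with a mean of at least 10 CPM in GFPlow cells and at least 20 times its mean in each other sort. Of 31901 gene IDs, 10642 had a GFPlow mean of at least 10 CPM and 251 met both limits. Leaving out 11 genes by name (sst2, ghrl, cdx4, cdx1b, tbx2b, map3k15, map2k6, fabp6, anxa4, cldni and wnt7bb), of which 10 met the limits, gave the 241. The difference between GFPlow cells and the other sorts is thus how the genes were found, and its size is given below as a description with no test.

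RNA was sequenced from 19 pools of sorted cells: 3 of GFPlow cells, 6 of bihormonal cells (Bi_hormonal in the plots), 3 of GFPhigh cells and 7 of β-cells (Beta in the plots). All fish were adults of 6 to 10 months, males and females, that carried Tg(sst1.1:eGFP) together with Tg(ins:NTR*-P2A-mCherry), and the main islets of 2 to 4 of them were pooled per sample, so that single animals cannot be told apart. GFPlow and GFPhigh cells carried GFP at low and high fluorescence and β-cells carried mCherry, all from control fish kept 18 hr in 0.16% DMSO. Bihormonal cells carried both colours and came from fish treated for 18 hr with 2.5 µM nifurpirinol (NFP), a prodrug that the nitroreductase in β-cells turns toxic, and sampled 20 days post treatment. GFP is driven by the sst1.1 promoter, so the gate that separates GFPlow from GFPhigh cells is itself set by a δ-cell gene, and a sorted pool can hold more than 1 cell type.

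δ-cells are the somatostatin cells of the islet, where they restrain insulin and glucagon release through receptors on their neighbours. Zebrafish have several somatostatin genes, and separate islet δ-cells express sst1.1 and sst2. Like other endocrine cells they depolarise to release hormone, are tuned by peptides, lipids and transmitters acting on G protein-coupled receptors, and share many genes with neurons.

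The label of the sort was checked against marker genes. In GFPlow cells sst2 had 289622, 381534 and 258578 CPM, against at most 6088 CPM in a library of another sort. These CPM are scaled to totals without the hormone genes, and a hormone gene can exceed that total. For sst1.1, GFPlow cells had 49372 to 102930 CPM, against 452666 to 1525290 CPM in bihormonal and 684650 to 1121560 CPM in GFPhigh cells. Markers of other islet cells were present too. The ghrelin gene ghrl, the ε-cell hormone, had 6266 to 10983 CPM in GFPlow cells and at most 262 CPM in any other library, and gcga, an α-cell hormone gene, had 2420 to 4676 CPM, against 550.1 to 10189 CPM in bihormonal cells, 14.3 to 693 CPM in GFPhigh cells and 1062 to 1919 CPM in β-cells. Summed acinar markers (8 of 11 found) had 716, 464 and 57.0 CPM in the 3 GFPlow libraries, against 19.1 to 123 CPM in bihormonal cells, 20.6 to 50.1 CPM in GFPhigh cells and 8.22 to 117 CPM in β-cells, with the acinar factor PTF1A at 0 in GFPlow. Summed ductal markers (5 of 7 found) had 867 to 992 CPM in GFPlow cells, against 40.0 to 236 CPM in bihormonal cells, 101 to 169 CPM in GFPhigh cells and 384 to 890 CPM in β-cells. Most of the GFPlow sum was anxa4 (705 to 907 CPM), a gene left out by name. The ductal marker krt18a.1 was lower in GFPlow (59.7 to 148 CPM) than in β-cells (322 to 856 CPM). CFTR went the other way, at 6.02, 13.6 and 8.26 CPM in GFPlow, against at most 0.937 CPM in any other library. The other ductal markers found were krt4, at 1.29 to 5.68 CPM in GFPlow and up to 6.15 CPM elsewhere, and her15.1, under 1 CPM in every library. Summed enterocyte markers had 588 to 756 CPM in GFPlow cells, against at most 140.1 CPM in any other library. Nearly all of that GFPlow sum was fabp6 (261 to 302 CPM) and cdx1b (311 to 448 CPM), also left out by name. VIL1 was lower in GFPlow (5.16 to 15.2 CPM) than in GFPhigh cells (62.1 to 137 CPM) and β-cells (86.4 to 126 CPM). FABP2 was at 0 and apoa4a at most at 0.215 CPM in GFPlow. Hepatocyte markers had 3.70 to 37.0 CPM in GFPlow, against at most 0.877 CPM. Nearly all of it was the member tfa, with fabp10a and ambp at 0 in GFPlow. Endothelial, mesenchymal and erythroid markers summed to at most 1.29, 5.37 and 0 CPM in GFPlow. Immune markers (5 of 7 found) summed to 152, 6.51 and 27.1 CPM in the GFPlow libraries. Their sum was 23.4 to 152 CPM in bihormonal cells, 13.6 to 128 CPM in GFPhigh cells and 26.0 to 502 CPM in β-cells. Neural and glial markers (4 of 6 found) summed to 82.1 to 102 CPM in GFPlow. In bihormonal cells, GFPhigh cells and β-cells that sum was 58.2 to 103, 107 to 144 and 47.5 to 89.5 CPM. The part of any of these cell types in the 241 genes was not tested, and in a bulk sort fewer cells of a type and less RNA per cell cannot be told apart. Libraries held 5599246 to 18077658 counts, and the 3 GFPlow libraries, with 5599246 to 9017892, were among the shallower ones. CPM is not scaled to gene length, so levels are compared between sorts within a gene, and the order of genes by CPM is not an order of transcript number.

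The 241 genes ranged between 10.1 and 6034 CPM in the GFPlow mean, with a median of 45.5 CPM. Of them 176 had at least 20 CPM, 114 at least 50 CPM and 65 at least 100 CPM. Together they held 31560 CPM, or 3.16% of the GFPlow counts outside the hormone genes. A single gene, kctd12.2, held 19.1% of that sum and the 10 highest genes 42.1%. The median of the members' means was 0.467 CPM in bihormonal cells, 0.591 CPM in GFPhigh cells and 0.208 CPM in β-cells. Names were available for 233 of the genes, those in capitals being human symbols given to a zebrafish gene, and 8 are known by ID only.

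**Figure D1:**
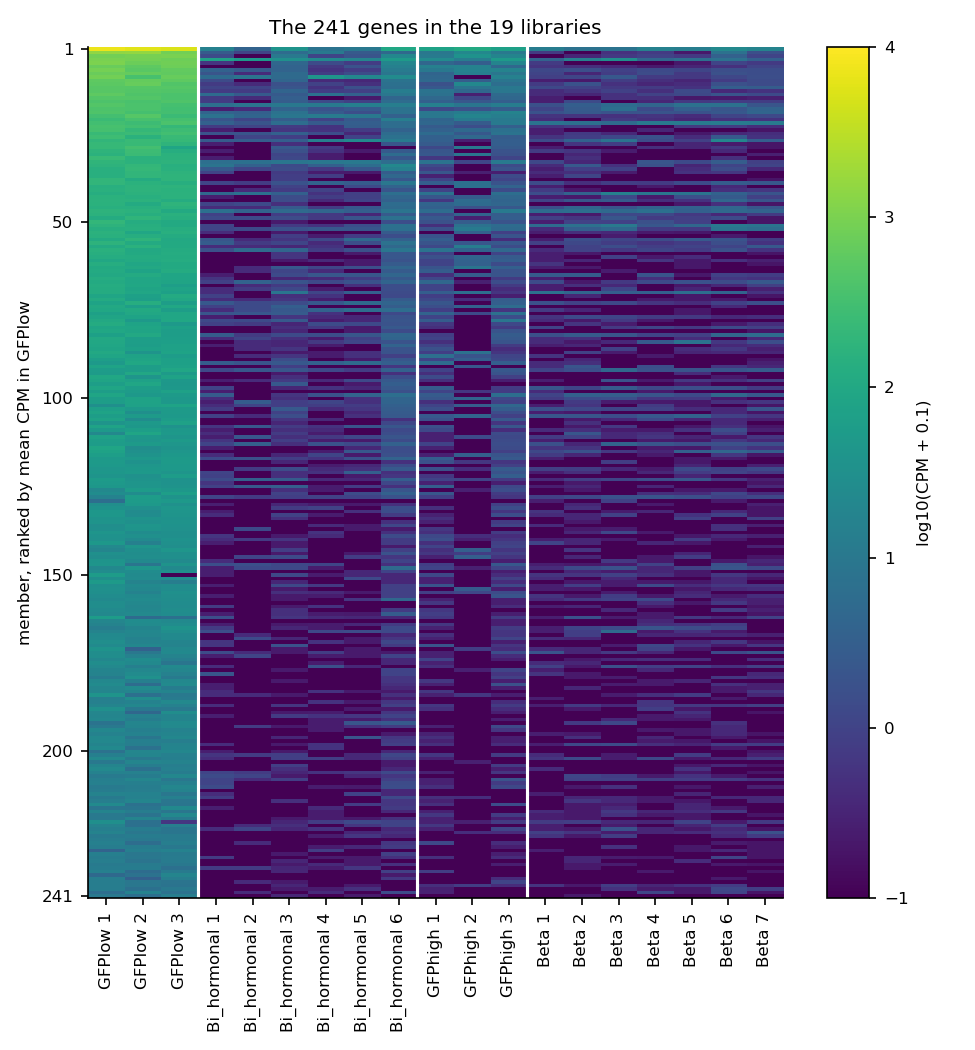
Level of each of the 241 genes (lines of the picture, from the highest GFPlow mean at the top) in each of the 19 libraries (columns, grouped by sort), as log10(CPM + 0.1) in colour. The 3 GFPlow columns are light from top to bottom, and Bi_hormonal 6 is the lightest column outside them, with 222 of the 241 genes read at least once.

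The ratio of the GFPlow mean to the highest mean among the other sorts had a median of 53.6 and reached 50 in 126 genes, 100 in 62 and 200 in 15. These counts include NEUROD6, the only gene with no count in any of the 16 other libraries. The share of all genes tested that differ between GFPlow cells and another sort, by the thresholds used below, was 16.5% against bihormonal cells, 15.7% against GFPhigh cells and 17.7% against β-cells, and nothing is read from it, since the choice used these contrasts. The highest other sort was bihormonal cells for 73 genes, GFPhigh cells for 131 and β-cells for 36. In 239 of the 241 genes each GFPlow library lay above each of the 16 other libraries, and in 181 the lowest GFPlow library was at least 10 times the highest other one. The exceptions were ctrl and MDFIC, described below. A choice made from 2 GFPlow libraries held in most cases for the library left out. Both limits were met in GFPlow 1 by 206 of 230 genes (89.6%) chosen from the other pair, in GFPlow 2 by 197 of 254 (77.6%) and in GFPlow 3 by 197 of 245 (80.4%), although the libraries of the other sorts were the same in all 3 cases.

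Near the limits, the genes inside and outside differed little. GFPlow means just inside the limit were 10.1 CPM for KCNB2, 10.2 CPM for DKK3 and si:dkey-250k15.8 and 10.3 CPM for spo11. The highest left out were 9.79 CPM for si:ch73-265h17.2 and ANKFN1, 9.76 CPM for kctd1, 9.64 CPM for nmur1a and 9.59 CPM for PEAK1. The lowest ratios kept were 20.3 for areg, 20.4 for MCF2, 20.8 for FHL1, 21.1 for TPD52L1 and 21.2 for DSCAML1. The highest left out were 19.98 for DENND2B, 19.8 for nectin3b, 19.7 for FREM2, 19.6 for gabra2a and 19.4 for pitpnaa.

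**Figure D2:**
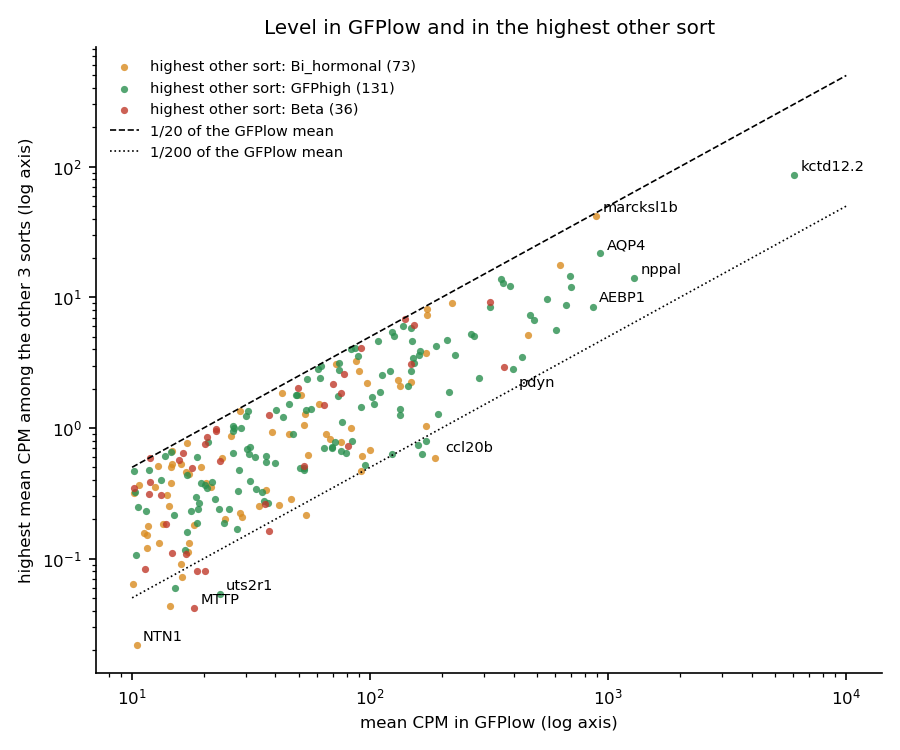
Mean CPM in GFPlow cells (x axis, log) against the highest mean CPM among the other 3 sorts (y axis, log) for the 240 genes with a count outside GFPlow. Each point is a gene coloured by its highest other sort, the dashed line marks 1/20 of the GFPlow mean, which is the limit of the choice, and the dotted line 1/200, with the most widely separated genes (NTN1, MTTP and uts2r1 among them) below it.

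The widest gaps belonged to genes with very few counts outside GFPlow, so that counting error set the precision of their ratios. NEUROD6, a neuronal bHLH transcription factor, had 13.1, 10.4 and 11.9 CPM in the GFPlow libraries and was at least 447-fold higher there than 3 counts over the 16 other libraries would allow. NTN1 (ENSDARG00000022531), a netrin that guides growing axons, had 4.94, 7.57 and 18.8 CPM in GFPlow and a single count in bihormonal cells, a pooled ratio of 386 (95% interval 68.2 to 15357) by an exact interval for counting error. MTTP, which loads lipid onto apolipoprotein B, had 14.6, 28.3 and 11.9 CPM in GFPlow and 2 counts in β-cells, a pooled ratio of 553 (95% interval 152 to 4588). For uts2r1, a urotensin II receptor, the values were 19.99, 26.4 and 23.5 CPM and 1 count in GFPhigh cells, a pooled ratio of 404 (95% interval 72.0 to 15991). For GALNT18, which belongs to the enzymes that start O-linked glycosylation, they were 12.7, 13.9 and 16.8 CPM and 2 counts in bihormonal cells, a pooled ratio of 282 (95% interval 77.0 to 2344). The intervals of these genes span more than 1 order of magnitude, so no order among them can be read. The chemokine gene ccl20b was better measured, at 243, 153 and 167 CPM in GFPlow, 0 to 2.09 (median 0.154) CPM in bihormonal cells, 0.558, 0 and 0.967 CPM in GFPhigh cells and 0 to 0.404 (median 0) CPM in β-cells, a ratio of 319.

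kctd12.2 (ENSDARG00000053542), a relative of the auxiliary subunits of GABA-B receptors, was the highest gene by CPM. It had 7104, 5867 and 5129.6 CPM in GFPlow, 3.75 to 96.1 (median 12.9) CPM in bihormonal cells, 77.4, 110.2 and 70.6 CPM in GFPhigh cells and 7.46 to 22.5 (median 13.6) CPM in β-cells. The lowest GFPlow library stood 46.5 times above the highest library of any other sort. AQP4 (ENSDARG00000010565), a water channel, had 845, 941 and 998 CPM in GFPlow, 0 to 20.9 (median 1.64) CPM in bihormonal cells, 11.2, 35.96 and 18.04 CPM in GFPhigh cells and 0 to 3.50 (median 0.564) CPM in β-cells. AEBP1, a carboxypeptidase-like secreted protein of the matrix, averaged 864 ± 161 CPM in GFPlow, 4.26 ± 7.20 CPM in bihormonal cells, 8.51 ± 8.42 CPM in GFPhigh cells and 0.329 ± 0.392 CPM in β-cells (SD, n = 3, 6, 3 and 7). The smallest ratio among the 12 highest genes was that of marcksl1b, a MARCKS-like actin and membrane protein. It had 972, 899 and 801 CPM in GFPlow, 18.8 to 76.7 (median 39.1) CPM in bihormonal cells, 25.7, 13.2 and 52.0 CPM in GFPhigh cells and 3.25 to 31.2 (median 6.63) CPM in β-cells, a ratio of 21.3 to bihormonal cells. The others of the 20 highest genes reported here are described with the groups below, apart from CPAMD8 (701 CPM in GFPlow), OLFM2 (600.5 CPM), spegb (555 CPM), GULP1 (459 CPM), carhsp1 (387 CPM), slmapb (361 CPM) and YJEFN3 (354 CPM).

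**Figure D3:**
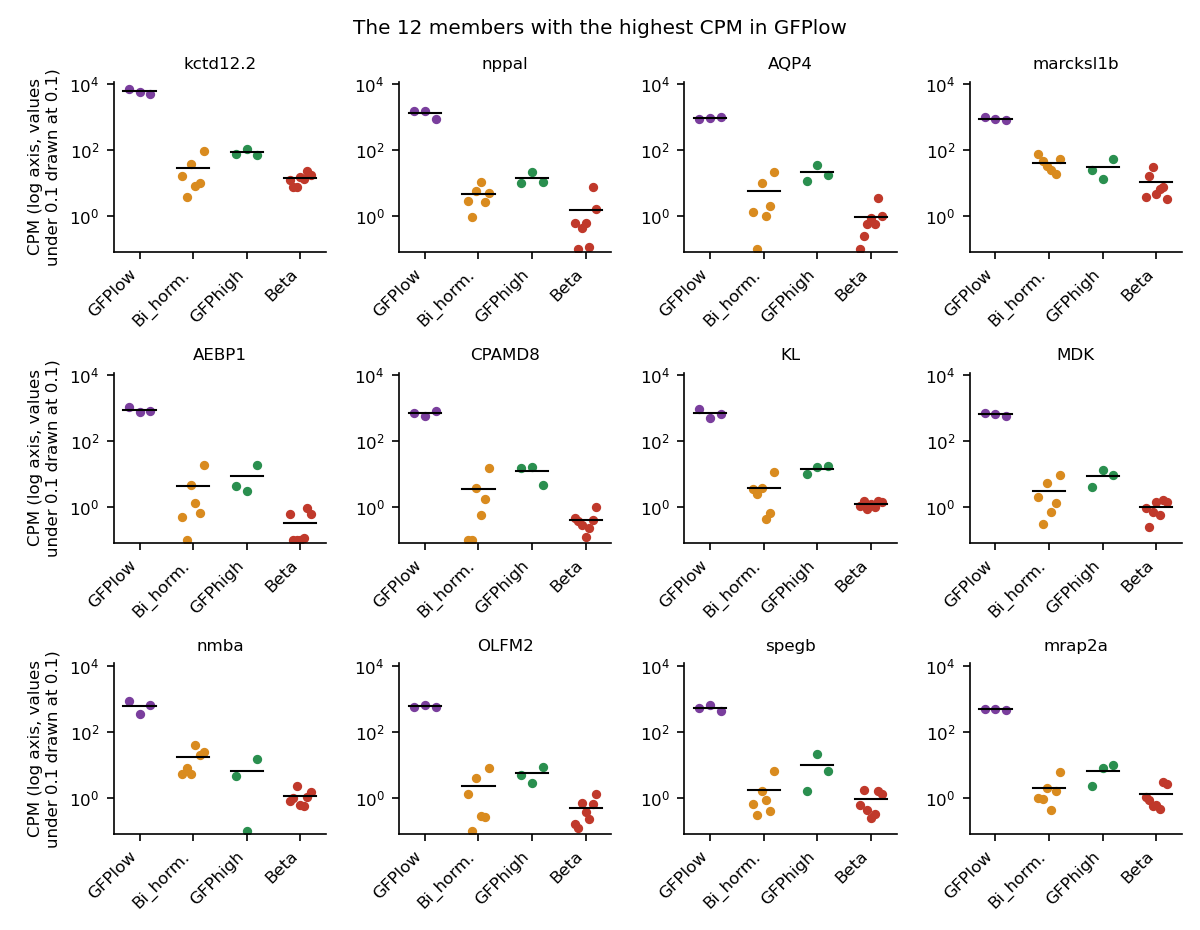
CPM (log axis, values under 0.1 drawn at 0.1) of the 12 genes with the highest GFPlow mean, with 1 point per library and a bar at the mean of each sort. All GFPlow points lie above all others in each panel, and for most of the 12 genes the β-cell points lie lowest.

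Peptide precursors were few in number and high in CPM. The 3 among the members were nppal, nmba and pdyn, at a mean of 1287, 628 and 396 CPM in GFPlow. nppal (ENSDARG00000052948), a natriuretic peptide gene, had 1479.5, 1523 and 858 CPM in GFPlow, 0.937 to 10.96 (median 3.94) CPM in bihormonal cells, 9.67, 21.6 and 10.6 CPM in GFPhigh cells and 0 to 7.55 (median 0.626) CPM in β-cells. nmba (ENSDARG00000068144), a precursor of neuromedin B, a bombesin-like peptide, had 852, 355 and 676 CPM in GFPlow, 5.25 to 41.0 (median 14.3) CPM in bihormonal cells, 4.65, 0 and 15.3 CPM in GFPhigh cells and 0.562 to 2.26 (median 0.995) CPM in β-cells. Its bihormonal libraries all lay above its β-cell libraries, and it varied more between GFPlow libraries (CV 40.2%) than most members did. pdyn (ENSDARG00000087798), the precursor of the dynorphin opioid peptides, had 400.4, 373 and 415 CPM in GFPlow, 0 to 5.63 (median 1.05) CPM in bihormonal cells, 3.35, 2.15 and 3.06 CPM in GFPhigh cells and 0 to 1.24 (median 0.562) CPM in β-cells. Its GFPlow libraries were close to each other, with a CV of 5.39%.

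Receptors of the opioid family were members alongside pdyn. OPRD1 (ENSDARG00000037159), named for the delta opioid receptor, had 396, 384 and 312 CPM in GFPlow, 0.163 to 7.46 (median 2.12) CPM in bihormonal cells, 1.12, 1.61 and 2.74 CPM in GFPhigh cells and 0.948 to 6.63 (median 2.61) CPM in β-cells. It was 1 of the 36 genes whose highest other sort was β-cells. OPRL1, named for the nociceptin receptor, was lower, at 16.1, 16.2 and 18.1 CPM in GFPlow and at most 8 counts in all other libraries together. The clearance receptor of natriuretic peptides, NPR3, had 74.6, 32.6 and 42.6 CPM in GFPlow, 0 to 2.25 (median 0.0721) CPM in bihormonal cells, 0, 0 and 0.805 CPM in GFPhigh cells and 0.251 to 4.45 (median 1.74) CPM in β-cells. Its GFPlow libraries differed 2.29-fold between the lowest and the highest.

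Altogether 17 members were G protein-coupled receptors, with GFPlow means of 13.0 to 364 CPM and a median of 35.8 CPM. Among the list of peptide, lipid and orphan receptors, 12 of the 65 genes with at least 10 CPM in GFPlow were members (18.5%), against 2.27% of all 10631 genes at that level. PTGER2 and ptger1b, receptors of prostaglandin E2, averaged 274 and 69.3 CPM in GFPlow. PTGER2 had 339.1, 217 and 266 CPM in GFPlow, 0 to 3.66 (median 0.466) CPM in bihormonal cells, 3.53, 5.01 and 6.77 CPM in GFPhigh cells and 0 to 0.251 (median 0) CPM in β-cells. Prostaglandin synthesis was represented by PTGS2, the inducible cyclooxygenase, at 222, 322 and 87.2 CPM, and by ptgdsb.1, a prostaglandin D synthase gene, at 28.4, 23.6 and 8.77 CPM in the GFPlow libraries. Both were lowest in GFPlow 3. AGTR1, the type 1 angiotensin II receptor, had 160.3, 251 and 157 CPM in GFPlow, 0 to 5.76 (median 0.0721) CPM in bihormonal cells, 2.23, 8.94 and 1.61 CPM in GFPhigh cells and 0 to 0.249 (median 0) CPM in β-cells. Further members were uts2rl (160.2 CPM in GFPlow), avpr2l, a vasopressin receptor gene (79.4 CPM), the muscarinic receptor CHRM3 (47.4 CPM), the relaxin family receptor rxfp3.3b (35.8 CPM), the metabotropic glutamate receptors GRM3 (31.3 CPM) and GRM5 (15.0 CPM), the sphingosine phosphate receptor s1pr5a (16.1 CPM), the scavenging chemokine receptor ACKR3 (14.3 CPM) and sctr, the secretin receptor (13.0 CPM).

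The receptor of the incretin GIP was uneven. gipr (ENSDARG00000025478) had 6.45, 55.3 and 50.8 CPM in the GFPlow libraries, no count in bihormonal or GFPhigh cells and 0 to 0.846 (median 0) CPM in β-cells. GFPlow 1 was the lowest of the 3, below the limit of 10 CPM, and still above each library of the other sorts. opn7c, an opsin gene, varied likewise, at 12.9, 18.3 and 36.6 CPM in GFPlow.

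Receptor kinases and receptor partners made up 8 members. KL (ENSDARG00000079862), named for the FGF23 co-receptor Klotho, had 908, 516 and 642 CPM in GFPlow, 0.433 to 11.8 (median 3.04) CPM in bihormonal cells, 10.04, 16.5 and 17.2 CPM in GFPhigh cells and 0.846 to 1.49 (median 1.25) CPM in β-cells. mrap2a, an accessory protein of melanocortin receptors, had 504, 489 and 474 CPM in GFPlow, 0.433 to 6.28 (median 1.28) CPM in bihormonal cells, 2.23, 8.23 and 9.83 CPM in GFPhigh cells and 0.449 to 2.97 (median 0.870) CPM in β-cells. Its CV of 3.04% between GFPlow libraries was among the smallest. The phagocytic receptor kinase mertka averaged 213 ± 31.7 CPM in GFPlow (SD, n = 3), and 4 ephrin receptors, epha7, EPHA6, epha2a and epha2b, averaged 126, 20.4, 14.8 and 11.2 CPM. Of the list of growth factors and receptor tyrosine kinases, 15 of 59 genes at this level were members (25.4%). With the genes left out by name not counted, this was the highest share among the 22 lists described. The list was matched by symbol, and it holds FGF12, which acts inside cells, and IGF2BP3, an RNA-binding protein.

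Secreted signals other than peptide hormones numbered 19, with a median GFPlow mean of 19.4 CPM. MDK (ENSDARG00000020708), the heparin-binding growth factor midkine, stood apart from the rest with 733, 672 and 589 CPM in GFPlow, 0.312 to 9.16 (median 1.64) CPM in bihormonal cells, 3.91, 13.4 and 9.02 CPM in GFPhigh cells and 0.249 to 1.62 (median 0.948) CPM in β-cells. bmp16 and BMP7, ligands of the BMP pathway, averaged 172 and 91.3 CPM, and tgfb5 averaged 13.2 CPM. The neurotrophin gene NTF3 had 166, 91.5 and 144 CPM in GFPlow, 0 to 2.62 (median 0.0625) CPM in bihormonal cells, 0, 3.40 and 0.805 CPM in GFPhigh cells and 0 to 0.373 (median 0.125) CPM in β-cells. fgf24 averaged 46.6 CPM, the ectodysplasin gene EDA 32.8 CPM, and PDGFD and PDGFA 18.8 and 17.2 CPM. kitlga, a ligand of the KIT receptor, was high in 1 library, at 52.7, 17.1 and 13.2 CPM in GFPlow. Of the Wnt pathway list 5 of 26 genes were members (19.2%). These were CXXC4 (75.2 CPM), APCDD1L (73.8 CPM), tcf7l1b (23.8 CPM), SFRP1 (18.1 CPM), which binds Wnt ligands outside the cell, and DKK3 (10.2 CPM), and none of the 10 Notch genes at this level was a member.

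Channels, pumps and transporters numbered 13, with a median GFPlow mean of 121 CPM. By CPM, which is not scaled to gene length, that was the second highest of the groups after the 3 peptide precursors. KCNT1 (ENSDARG00000079484), a potassium channel opened by sodium, had 512.6, 462 and 438 CPM in GFPlow, 0.62498 to 12.8 (median 0.757) CPM in bihormonal cells, 7.81, 4.65 and 9.34 CPM in GFPhigh cells and 0.270 to 1.24 (median 0.440) CPM in β-cells. The cation channels trpc5b and TRPM3 were steady between GFPlow libraries, at 125, 121 and 117 CPM and 111, 105 and 107 CPM. Solute carriers were members in 6 cases (3.23% of those at this level), the highest being SLC16A12 at 221 CPM and the sulfate transporter SLC26A2 at 173 CPM in GFPlow. Ligand-gated channels were the glycine receptors GLRA1 (75.1 CPM) and glra4a (34.2 CPM) and the nicotinic subunit CHRNB4 (30.9 CPM). They belong to the neurotransmitter receptor list, of which 6 of 40 genes were members (15.0%).

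Adhesion and guidance genes numbered 16 and matrix genes 10. In the axon guidance list 11 of 54 genes were members (20.4%), among them the semaphorins SEMA3F (134 CPM in GFPlow) and SEMA4C (97.3 CPM), the contactin CNTN1 (45.8 CPM), l1camb (26.5 CPM) and NTN1. This list overlaps that of growth factors and receptor tyrosine kinases, and epha7, EPHA6, epha2a, epha2b and efnb3a count in both. HEPACAM2, an immunoglobulin-type adhesion protein, had 346, 306 and 209.8 CPM in GFPlow, 0.433 to 6.15 (median 0.795) CPM in bihormonal cells, 2.60, 1.43 and 3.22 CPM in GFPhigh cells and 0 to 0.746 (median 0.474) CPM in β-cells. CDH11, a classical cadherin, had 149, 171 and 155 CPM in GFPlow, 0 to 1.96 (median 0.469) CPM in bihormonal cells, 0.930, 0 and 1.29 CPM in GFPhigh cells and 0 to 0.632 (median 0.124) CPM in β-cells. CELSR3, a cadherin-type receptor of planar polarity, averaged 153 CPM in GFPlow and 6.19 CPM in β-cells, a ratio of 24.7, one of the smaller ones. In the matrix group, EDIL3 averaged 171 CPM in GFPlow and SMOC2 123 CPM. The genes p3h4 and loxl2a, which act in collagen modification, averaged 227 and 151 CPM. The matrix metalloproteinase MMP2 varied between GFPlow libraries, at 21.3, 86.6 and 49.8 CPM. Tight junction members were cldn15a (87.5 CPM), cldnb (22.6 CPM) and cldn3d (17.1 CPM), 3 of 28 genes at this level (10.7%).

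Of the transcription factors listed at this level, 8 of 290 were members (2.76%), against 2.27% of all genes. This share leaves out cdx4, cdx1b and tbx2b, transcription factors that met the limits with ratios of 27.9, 95.3 and 50.2 and were left out by name. By hand 13 members were placed in the transcription factor group. SALL4, a zinc finger factor known from embryonic stem cells, had 137, 144 and 129.8 CPM in GFPlow, 0.979 to 6.68 (median 1.93) CPM in bihormonal cells, 1.67, 11.4 and 4.99 CPM in GFPhigh cells and 0.316 to 7.95 (median 3.23) CPM in β-cells. tshz3a averaged 144 CPM, hmx4 92.6 CPM, the ETS factor ETV4 84.1 CPM, pbx1a 77.9 CPM, EYA4 69.8 CPM, PKNOX2 52.9 CPM and ZFHX4 51.1 CPM. SP6 and SP7, zinc finger factors of teeth and bone, averaged 16.1 and 10.3 CPM. Synaptic genes numbered 10, among them CAMKV (162 CPM) and the postsynaptic adhesion protein LRRTM1 (149 CPM), and the synaptic vesicle protein SV2B had 168, 114 and 110.5 CPM in GFPlow. Among 13 enzymes were the purine synthesis enzyme PFAS (149 CPM), the carbonic anhydrase CA6 (171 CPM), the glycine decarboxylase GLDC (60.8 CPM), DDC, which makes dopamine and serotonin from their amino acid precursors (26.6 CPM), and the adenylyl cyclase ADCY8 (14.6 CPM). Of the other lists matched by symbol, members were 9 of 94 genes for cadherins, integrins and matrix, 3 of 30 for the BMP and TGF-beta pathway, 3 of 17 for peptide hormones (pdyn and the receptors uts2rl and uts2r1, caught by name), 2 of 29 for potassium channels and 3 of 67 for other channels. They were 5 of 128 for lipid handling, 4 of 105 for cytokines and immune genes, 5 of 152 for the cytoskeleton, 3 of 96 for vesicle release and synapse, 6 of 235 for small GTPases, 2 of 81 for the MAP kinase pathway, 3 of 128 for cilia and 1 of 65 for prohormone processing and proteases. The groups were assigned by hand after the values had been seen, 111 members were given none, and the shares of lists are descriptions with no test. A gene could count in more than 1 list, as tcf7l1b, PTGER2 and ptger1b did. The genes left out by name count as members in no list. Among them map3k15, map2k6, cldni, sst2 and ghrl met the limits, so the shares of lists for such genes are lowered by the choice.

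Agreement between the 3 GFPlow libraries was less close for the members than for other genes, which were not matched to them in level. The part of level in this difference was not tested. The median CV between GFPlow libraries was 23.3% for the members and 15.9% for the other 10401 genes with at least 10 CPM there, 100 members had a CV under 20%, 28 over 50% and 3 over 100%. The smallest CV was that of si:ch211-286o17.1 (2.78%, at 18.9, 19.01 and 18.1 CPM), and the largest that of ifi27.2 (127%, at 57.6, 5.46 and 6.97 CPM). GFPlow 1 was the highest of the 3 for 125 members (51.9%), against 30.1% of the other genes. ctrl, a chymotrypsin-like protease of the exocrine pancreas, had 31.2, 7.04 and 0.516 CPM in GFPlow, 0 to 1.19 (median 0.485) CPM in bihormonal cells, 0.186, 0.179 and 0.644 CPM in GFPhigh cells and 0.135 to 0.899 (median 0.616) CPM in β-cells. Its GFPlow 3 value overlapped the other sorts, and its order over the GFPlow libraries was that of the summed acinar markers given above, whose part in it was not tested. MDFIC had 59.103, 24.99 and 0 CPM, the only member with no count in a GFPlow library. Also uneven were the transferrin gene tfa (37.0, 3.52 and 21.4 CPM), a plasma protein, and TNNI2, a troponin of fast muscle (38.3, 7.04 and 10.3 CPM).

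Many zebrafish genes exist in more than 1 copy, and 51 members carry a symbol that the gene name table also gives to other IDs. Only identical symbols were matched, so copies whose names differ by a letter were missed. The members epha2a and epha2b are named as such a pair. None of the 57 other IDs with an identical symbol was a member. Of these, 41 stayed under 10 CPM in every sort and 16 reached it in at least 1, with the highest mean in GFPlow for 6, in bihormonal cells for 1, in GFPhigh cells for 7 and in β-cells for 2. The examples were chosen after the values were seen. The second MDK gene (ENSDARG00000036036) had 3.65, 4.58 and 6.71 CPM in GFPlow, 24.1 to 40.8 CPM in bihormonal cells, 50.04, 24.7 and 57.0 CPM in GFPhigh cells and 0 to 1.08 CPM in β-cells. Each of its bihormonal and GFPhigh libraries lay above each GFPlow library, whereas the member MDK gene was highest in GFPlow. The second DKK3 gene (ENSDARG00000070683) had 2828, 5951 and 7986 CPM in GFPlow, 14636 to 35649.5 CPM in bihormonal cells, 21509, 20846 and 23314 CPM in GFPhigh cells and 444 to 1777 CPM in β-cells. The member DKK3 gene had 13.1, 6.86 and 10.6 CPM in GFPlow and at most 21 counts in any other sort. The second SEZ6 gene (ENSDARG00000079414) was highest in GFPhigh cells, at 143, 208 and 66.9 CPM, against 0.141 to 2.61 CPM in β-cells. The second ACKR3 gene (ENSDARG00000058179) was instead highest in GFPlow, as the member was, at 24.7, 56.8 and 45.4 CPM, against 0.662 to 5.94 CPM in bihormonal cells and 5.21, 1.25 and 4.35 CPM in GFPhigh cells. Reads shared between such copies, or between overlapping genes, could not be reassigned from gene counts, and the cDNA method used keeps no strand.

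**Figure D4:**
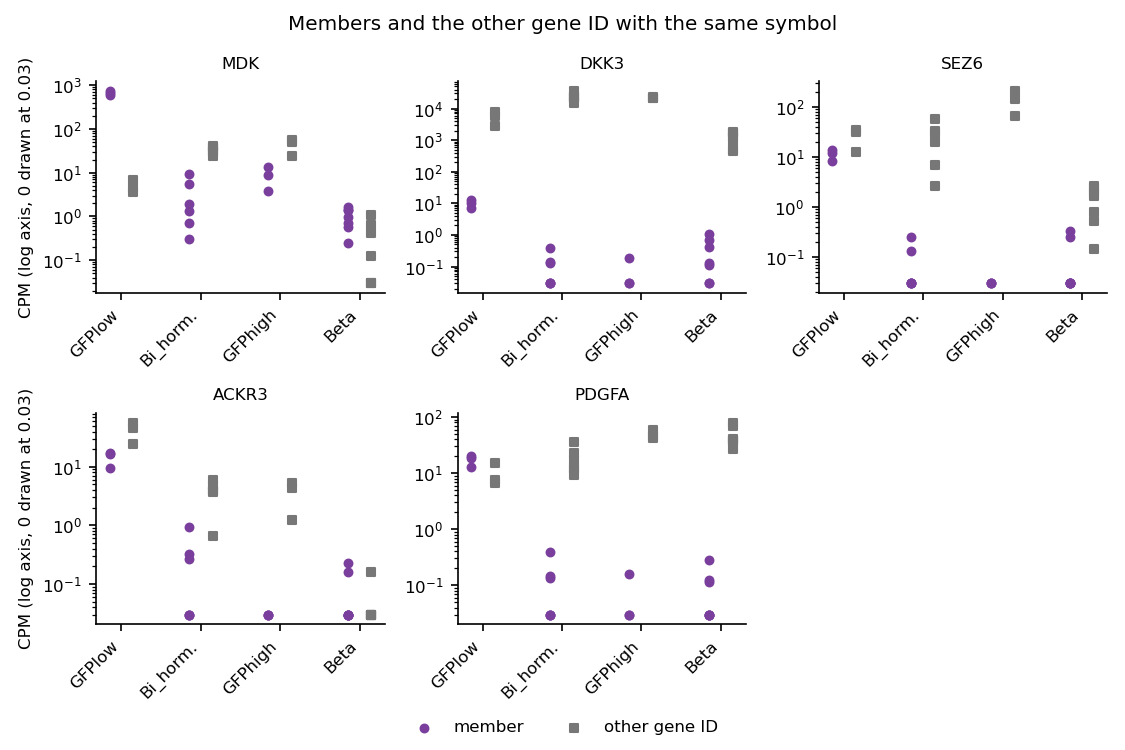
CPM (log axis, values under 0.03 drawn at 0.03) in each library for 5 members (circles) and for the highest other gene ID with the same symbol (squares), by sort. The circles are highest in GFPlow in each panel, while the squares are highest in GFPlow only for ACKR3.

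By symbol, 162 of the 241 matched 1 protein-coding gene of the RefSeq annotation, and 7 pairs of these had at most 2 protein-coding genes between them. The pairs were ank2a and camk2d2, SP6 and a neighbour without a gene name of its own, basp1 and ADCY8, si:dkey-250k15.10 and si:dkey-250k15.7, the claudins cldn3d and cldnb, and atp6ap1lb and slmapb, all with 0 genes between, and EPHA6 and kctd12.2 with 2.

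Outside GFPlow the members were low and not absent, and their summed level differed between the other sorts. As a percent of the GFPlow mean, the sum was 0.570 to 2.51% (median 0.788%) in the 6 bihormonal libraries, 1.42, 1.64 and 1.96% in the 3 GFPhigh libraries and 0.359 to 0.725% (median 0.491%) in the 7 β-cell libraries. All GFPhigh libraries lay above all β-cell libraries, and 5 of the 6 bihormonal libraries did. sst2, which was left out of the 241, was read at 0.0223 to 1.96% (median 0.272%) of its GFPlow mean in bihormonal cells, 0.579, 1.84 and 1.75% in GFPhigh cells and 0.0389 to 0.347% (median 0.104%) in β-cells. Sum and sst2 were both highest in Bi_hormonal 6 among bihormonal libraries, and the part that sst2-expressing cells had in the sum was not tested. The number of members read at least once was 89 to 222 in bihormonal libraries, 85 to 206 in GFPhigh libraries and 132 to 164 in β-cell libraries. GFPhigh 2, with 85 members read, held a similar sum to the other GFPhigh libraries in fewer genes.

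**Figure D5:**
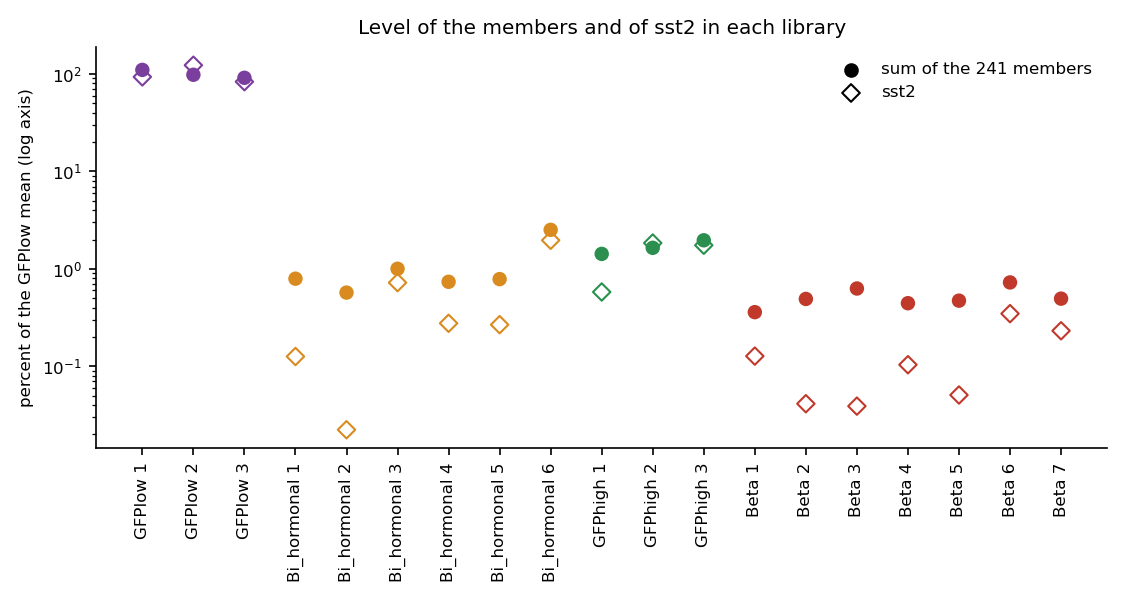
Sum of the 241 genes (filled circles) and level of sst2 (open diamonds) in each library, as a percent of the respective GFPlow mean (log axis), coloured by sort. The GFPhigh circles (1.42 to 1.96%) and the circle of Bi_hormonal 6 (2.51%) stand above those of the β-cells (0.359 to 0.725%).

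The deposited libraries carry numbers that fall into runs of close values, some of which hold different sorts. What the numbers stand for is not given in the sources used here. In the run with GFPhigh 1 and 2 and Beta 4 and 5, the sum was 1.42 and 1.64% in GFPhigh cells and 0.444 and 0.471% in β-cells. In the run with Bi_hormonal 6, GFPhigh 3, Beta 6 and Beta 7, it was 2.51% in bihormonal cells, 1.96% in GFPhigh cells and 0.725 and 0.494% in β-cells. In the run with Bi_hormonal 4 and 5 and Beta 1 it was 0.736 and 0.784% in bihormonal cells and 0.359% in β-cells. In these 3 runs each bihormonal and GFPhigh library thus stood above the β-cell libraries, and in the only run with both sorts the bihormonal library stood above the GFPhigh one, whereas over all libraries the bihormonal median was below each GFPhigh library. GFPlow libraries shared a run only with Beta 2 and 3, so that run and sort cannot be told apart for GFPlow against bihormonal or GFPhigh cells. With the limit against β-cells taken from that run alone, 238 genes met the rule, 229 of them members.

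The contrasts between the other sorts were tested, since the choice sets a ceiling for each sort and not which of them is higher. All 14693 genes whose normalized counts averaged at least 10 over the libraries were fitted together with edgeR's quasi-likelihood test, and p-values were adjusted over all of them by the Benjamini-Hochberg method. Calls needed a fold above 2 besides an adjusted p under 0.05. Of the members 237 were tested and NTN1, SP7, spo11 and KCNB2 fell under the minimum. Most of the 237 reached the minimum through GFPlow, the sort they were chosen for, and had few counts in the pairs compared, so a share of the 237 says little about the members. The count with the minimum applied to the pair of sorts alone is therefore given first in each comparison. The fit behind that count still took its spread from all 19 libraries, GFPlow included. Nothing shows that the pools of a sort are independent beyond being separate samples, and the p-values measure the spread between them.

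GFPhigh cells and β-cells both came from control fish. With the minimum applied to this pair, 41 members could be tested and 24 were called by edgeR's quasi-likelihood test, all higher in GFPhigh cells, against 17.9% of all genes called. In the fit with the minimum over all libraries 69 members were called, again all higher, against 18.1% of all genes called, 10.4% higher and 7.7% lower. Without GFPhigh 3, this fit called 59 members higher and 4 lower, against 21.5% of all genes. Values and genes named below are from the fit with the minimum over all libraries, whose 69 calls include all 24. Which of the named genes are among the 24 is not given. Some had few counts in this pair, such as CHRM3, at a mean of 0.898 CPM in GFPhigh cells and 0.117 CPM in β-cells. Among the 20 highest members YJEFN3 (4.36 ± 0.42 (SE), adjusted p = 1.34e-07), slmapb (2.43 ± 0.34 (SE), adjusted p = 2.24e-05) and KL (3.51 ± 0.49 (SE), adjusted p = 1.90e-05) rose. YJEFN3 had 9.49, 18.2 and 13.7 CPM in GFPhigh cells and 0.337 to 1.14 (median 0.497) CPM in β-cells, and these did not overlap. All 3 peptide precursors rose, nppal by 3.13, nmba by 2.53 and pdyn by 2.35 on the log2 scale. The G protein-coupled receptors PTGER2, AGTR1, uts2rl, ptger1b, avpr2l, rxfp3.3b and CHRM3 rose in that fit. So did the channels AQP4 (4.44 ± 0.78 (SE), adjusted p = 2.93e-04) and KCNT1 (3.60 ± 0.65 (SE), adjusted p = 3.83e-04). No share of a group is read from these calls, since most members reached the minimum through GFPlow. The receptor kinases and partners KL, mrap2a, mertka and epha7 rose, and so did the secreted signals MDK, BMP7, NTF3, EDA and C1QTNF1. kctd12.2 rose by 2.60 on the log2 scale, with all 3 GFPhigh libraries above all 7 of β-cells. sst2 also stood higher in each GFPhigh library than in any β-cell library, as given above.

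Bihormonal cells, which make both hormones after β-cell ablation, were compared with β-cells in the same way. With the minimum applied to this pair, 42 members could be tested and 23 were called by edgeR's quasi-likelihood test, 21 higher and 2 lower in bihormonal cells, against 12.9% of all genes called. In the fit with the minimum over all libraries 62 members were called, 60 higher and 2 lower, against 13.2% of all genes called, 7.39% higher and 5.76% lower. In that fit YJEFN3 (3.78 ± 0.38 (SE), adjusted p = 2.33e-07) and nmba (4.20 ± 0.66 (SE), adjusted p = 6.97e-05) rose, and each of their 6 bihormonal libraries lay above each of the 7 β-cell libraries. SLC26A2 (2.99 ± 0.49 (SE), adjusted p = 1.16e-04) had 5.89 to 10.2 (median 7.999) CPM in bihormonal cells and 0 to 2.83 (median 1.11) CPM in β-cells. cldn15a (4.75 ± 0.72 (SE), adjusted p = 4.57e-05) had 0.326 to 6.09 (median 3.07) CPM in bihormonal cells and 0 to 0.632 (median 0) CPM in β-cells. GULP1 (2.69 ± 0.50 (SE), adjusted p = 4.08e-04), an adaptor of phagocytosis, had 2.499 to 9.69 (median 4.49) CPM in bihormonal cells and 0.249 to 1.89 (median 0.877) CPM in β-cells. The members that fell were MCF2 (-1.76 ± 0.58 (SE), adjusted p = 0.0383), an exchange factor of small GTPases, and si:dkey-206p8.1 (-1.07 ± 0.30 (SE), adjusted p = 0.0129). The peptide precursor pdyn and the transcription factor tcf7l1b also rose. The genes named are from the 62 calls, which include all 23 and also members with few counts in this pair, so no share of a group is read from them.

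The count with the minimum over all libraries depended on Bi_hormonal 6. Without that library, 38 members were called (34 higher and 4 lower) with the minimum over all libraries, 36 of them among the 62, against 12.8% of all genes called. The median log2 fold change of the members tested in that fit was 1.18 with all libraries and 0.31 without Bi_hormonal 6. No fit with the minimum applied to the pair was made without Bi_hormonal 6. Single genes were followed only among the highest members by CPM. Of these, YJEFN3, nmba, marcksl1b, GULP1, carhsp1, KCNT1 and AEBP1 were called with and without Bi_hormonal 6. CPAMD8, AQP4, KL, pdyn, MDK, slmapb and OLFM2 were called only with it. For SLC26A2, cldn15a, MCF2, si:dkey-206p8.1 and tcf7l1b, named above, the call without it is not given. This comparison and the one before it use the same 7 β-cell libraries.

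Few members were called between bihormonal and GFPhigh cells. With the minimum applied to this pair, 64 members could be tested and 5 (7.81%) were called by edgeR's quasi-likelihood test, 2 higher and 3 lower in bihormonal cells, against 3.38% of all genes called. In the fit with the minimum over all libraries 5 members were called, 1 higher and 4 lower, against 2.76% of all genes (1.42% higher and 1.34% lower). In that fit rpz5 (3.20 ± 0.82 (SE), adjusted p = 0.0428) was higher in bihormonal cells, at 1.25 to 21.9 (median 4.70) CPM, against 1.30, 0 and 1.29 CPM in GFPhigh cells. Lower were APCDD1L (-2.82 ± 0.68 (SE), adjusted p = 0.0372), PTGER2 (-2.19 ± 0.55 (SE), adjusted p = 0.0408), KL (-1.80 ± 0.48 (SE), adjusted p = 0.046) and slmapb (-1.38 ± 0.35 (SE), adjusted p = 0.0415). KL had 0.433 to 11.8 (median 3.04) CPM in bihormonal cells and 10.04, 16.5 and 17.2 CPM in GFPhigh cells, overlapping in Bi_hormonal 6 only. The count rested on single libraries: without Bi_hormonal 6 it was 30 (28 lower), against 4.49% of all genes called. Without GFPhigh 2, Bi_hormonal 4 or Bi_hormonal 5 it was 0, when calls over all genes were few as well, at 0.0884%, 0.462% and 0.395%. Of 239 members tested in each of these fits, 32, 44 and 36 had an unadjusted p under 0.05 in edgeR's test. The share of all genes at that p was not computed, so nothing is read from these numbers.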

How the data were processed

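RNA of cells sorted by FACS was amplified with SMART-Seq2 and sequenced as 19 libraries. The authors aligned the reads to GRCz11 (Ensembl 92 genes) with STAR, counted them with featureCounts and deposited raw counts per gene, 1 table per library with 31901 gene IDs. Tool versions and the handling of reads that match several genes are not given in the sources used here. Gene symbols came from a table of IDs and names, with the study's own names for sst1.1, tbx2b and wnt7bb. Replicates were the samples the labels separate, with 5599246 to 18077658 counts each. Intervals of pooled ratios are exact at 95% and cover counting error only.

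The members and all lists were chosen with earlier results of these data known. Named were the 20 highest genes, the 5 widest ratios, up to 6 members of each list, genes called in a contrast without GFPlow, genes at the limits, genome neighbours and the extremes of spread. Other members were named by role after their values were seen. A few members that these rules name are not reported here. RefSeq gene order was that of assembly GRCz12tu, of which no coordinates were used.

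Counts were fitted with edgeR 4.0.16 (R 4.3.3, TMM scaling, 1 mean per sort over all 19 libraries, no covariates), and adjusted p-values are Benjamini-Hochberg values over all genes tested. Each value given as SE is the size of the log2 fold change divided by the square root of the test's F statistic. It was derived from the test and not estimated separately. In counts simulated from these libraries, the test called 92% of genes raised 4-fold in bihormonal cells over β-cells, 82% in GFPhigh cells over β-cells and 78% in bihormonal over GFPhigh cells. The raised genes were drawn from all genes tested, each with the same starting mean in every sort. The members are far lower in these sorts than in GFPlow, so these percentages do not hold for them. Alternatives were DESeq2 1.42.0, its size factors, totals without TMM, other filters, fits on fewer sorts, a replicate block and each library left out. Tables and plots were made with Python 3.11.15, pandas 2.3.3, numpy 2.4.6, scipy 1.17.1 and matplotlib 3.10.9.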

Additional observations from a re-analysis of the deposited data

Results flagged for a closer look

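In groups of 6 or 7 libraries, 43 sets of values were searched for a library whose gap to its neighbour was large against the range of the group (Dixon's 95% limit), and 12 had one. For normally distributed values chance gives about 5% of groups such a gap. Low CPM need not be so distributed, each flagged library was the highest of its set, and the sets share libraries. In bihormonal cells it was replicate 6 in all 8 cases. The sum of the 241 genes reached 2.51% of its GFPlow mean there (next library 1.00%) and sst2 1.96% (next 0.722%). KCNT1 had 12.8 CPM (next 4.00 CPM), AEBP1 18.6 CPM (next 4.50 CPM), CPAMD8 15.05 CPM (next 3.75 CPM), KL 11.8 CPM (next 3.87 CPM), PTGER2 3.66 CPM (next 0.662 CPM) and rpz5 21.9 CPM (next 8.16 CPM).

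In β-cells the gaps fell to replicates 6 and 7, with 2 each. Replicate 6 had 3.50 CPM of AQP4 (next 0.967 CPM) and 7.55 CPM of nppal (next 1.58 CPM). Replicate 7 had 0.967 CPM of CPAMD8 (next 0.474 CPM) and 4.13 CPM of slmapb (next 2.36 CPM). The cause of these gaps was not tested.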

How the results depend on the processing

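A limit of 40-fold in place of 20-fold kept 155 of the 241 genes, and leaving out 1 library of any sort gave 230 to 254. TMM factors gave 195, all of them members, and totals of all genes 220, of which 204 were members. With a limit against bihormonal and β-cells only, added after seeing the data, 293 genes met the rule. The members called between bihormonal and β-cells were 23 with the minimum applied to that pair, 19 with a fit of the pair alone and 20 without the GFPlow libraries, against 62. The share of all genes called was 12.9, 13.1 and 12.4%, against 13.2%. For GFPhigh against β-cells the members called were 24, 23 and 24, against 69. The share of all genes was 17.9, 16.6 and 16.6%, against 18.1%. Fewer members could be tested in those fits, at 42, 44 and 52 in the first comparison and 41, 49 and 52 in the second. The minimum then rests on sorts in which the members are low. The fits on fewer sorts tested more members than the fit with the minimum on the pair and called no more. The fit with the minimum on the pair still took its spread from all 19 libraries. Between bihormonal and GFPhigh cells, against 5 calls, DESeq2 gave 13 (1152 of all genes). With a fit of the pair alone edgeR gave 0 of 60 tested (10 members at an unadjusted p under 0.05), against 31 of all genes. Without the GFPlow libraries it gave 0 of 52 tested (9 members), against 112 of all genes. Leaving out 1 library gave 38 to 70 calls between bihormonal and β-cells, 61 to 68 between GFPhigh and β-cells and 0 to 30 between bihormonal and GFPhigh cells. The share of all genes called in these fits was 12.3 to 13.1%, 11.4 to 21.5% and 0.0884 to 6.26%. The counts of 0 came without GFPhigh 2 (32 members at an unadjusted p under 0.05), Bi_hormonal 4 (44) and Bi_hormonal 5 (36). Of all genes 13, 68 and 58 were then called. The share of all genes at an unadjusted p under 0.05 was computed for no fit, so nothing is read from such counts here or below. Without Bi_hormonal 2 there were 8 calls, against 882 of all genes.

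No pairing by replicate number was seen: same-numbered libraries deviated from their group means with correlations of -0.24 to 0.07, -0.04 to 0.08 and -0.20 to 0.09 in the 3 comparisons. Pools of the same fish under other numbers were not looked for, and no fit used the runs of library numbers. A replicate block gave 52, 54 and 0 calls (48 members at an unadjusted p under 0.05 in the last) for bihormonal against β-cells, GFPhigh against β-cells and bihormonal against GFPhigh cells, when 1759, 1673 and 3 of all genes were called. Library totals in place of TMM shifted the median of all genes to -0.17 for bihormonal against β-cells and -0.14 for bihormonal against GFPhigh cells, and calls higher over all genes were then 928 of 2002 (1086 of 1933 with TMM) and 98 of 394 (208 of 405). For the 39 fold changes of single members, 658 of 726 values under alternatives kept their direction and their side of the threshold, 68 kept the direction and lost the call, and 0 changed sign. With under 1 CPM in most libraries outside GFPlow, differences between the other sorts were not detectable for many members at this depth.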
